A study of Equus caballus with 25 samples.

Results

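CYP19A1 and HSD3B2 are 2 genes of steroid hormone synthesis, and their transcripts were followed in the horse endometrium, the lining of the uterus, over the oestrous cycle. Their members were all probes that the array files assign to the RefSeq transcript of either gene. These were 10 of 43603 probes and 2 of the 620 genes that could be named on the array. CYP19A1 (NM_001081805) had 9 probes and HSD3B2 (NM_001081911) had 1, and the RefSeq table lists HSD3B1 as another name of the second gene.

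CYP19A1 encodes aromatase, the cytochrome P450 enzyme that turns androgens into oestrogens. HSD3B2 encodes a hydroxysteroid dehydrogenase and isomerase that turns pregnenolone into progesterone and carries out the matching step towards the androgens that aromatase uses. In the cycling mare most of both hormones comes from the ovary: oestrogens from the growing follicle before ovulation, and progesterone from the corpus luteum after it. The endometrium responds to both.

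The 5 animals were normal cycling Bavarian Warmblood mares, each biopsied once on each of days 0, 3, 8, 12 and 16, counted from ovulation on day 0. The labels name day 0 as the ovulatory phase, days 3, 8 and 12 as the early, mid and late luteal phase, and day 16 as the beginning of the next ovulatory phase. No mare was treated, and the 5 biopsies of a mare came from different cycles or, within a cycle, were at least 9 days apart. Each of the 25 biopsies was hybridised to its own one-colour Agilent array, so each day holds 5 mares and each array 1 biopsy of whole tissue. In such bulk tissue, fewer cells of a type and less RNA per cell cannot be told apart.

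The level of a probe is given as the log2 of its processed signal minus the 75th percentile of the array, so that 0 is a signal equal to that percentile. The 75th percentile itself ranged from 694 to 3699 signal units, with a median of 891 on day 0 and of 1559 to 1999 on the other days. Between 70.3% and 88.1% of spots were well above background, and none was saturated. Across all tested probes, arrays had a median correlation of 0.954 to 0.982 with the others of their day. Of the 25 arrays, 4 were closer to another day than to their own (day 0 of mare 5, day 3 of mare 2, day 16 of mares 1 and 5), and the values of CYP19A1 and HSD3B2 without them are given beside their results. That omission was chosen after the data were seen, and leaving out arrays unlike their day by itself favours differences between days. Epithelium, which the labelled tissue must hold, was represented by 1 of 9 listed markers, ESRP1, at mean levels between 2.94 and 3.18 on all days, and the stromal markers DCN and LUM were well above background on all 25 arrays.

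Of the 9 CYP19A1 probes, 1 carried nearly all of the measurable signal. Probe A_69_P000426 was well above background on all 25 arrays, with signals from 115 to 2172 and a median of 596. The other 8 probes of the same transcript gave 200 values, of which 5 were well above background, and their signals ranged from 1.10 to 29.5 with a median of 3.06. Of these 8 probes, 5 were never well above background. The lowest signal that counted as well above background on an array lay between 4.96 and 17.0, so most of these values are at the floor of the measurement. The 5 exceptions were scattered: A_69_P006601 on day 8 in mare 3 (8.64) and on day 12 in mare 1 (14.6), A_69_P006602 on day 8 in mare 4 (11.9) and on day 12 in mare 3 (9.05), and A_69_P006604 on day 16 in mare 2 (29.5). Where on the transcript each probe lies was not analysed here, and why 8 of 9 probes were at background was not tested. All CYP19A1 levels below are those of A_69_P000426, and none of the other 8 probes gives a second measurement of them. Whether this probe reports the CYP19A1 transcript cannot be told from these data, and its name is that of the array design. The single HSD3B2 probe, A_69_P000076, was well above background on 23 of 25 arrays.

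**Figure D1:**
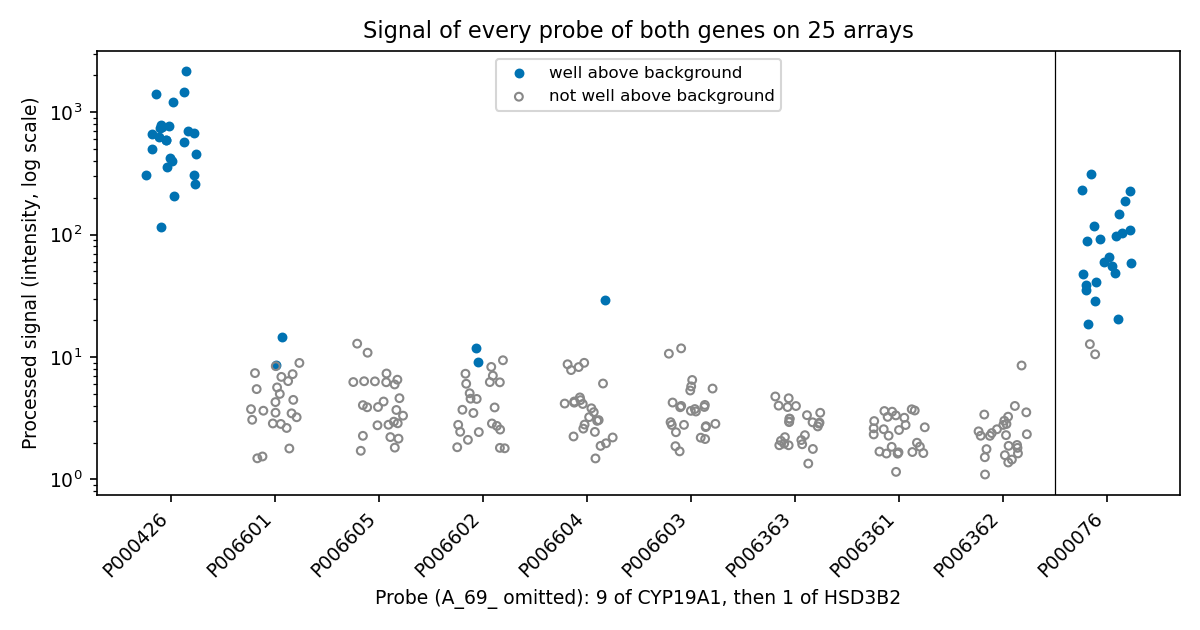
Processed signal (log axis) of each of the 10 probes on the 25 arrays, 1 point per array, filled where the spot was well above background. Probe A_69_P000426 of CYP19A1 lies between 115 and 2172, the other 8 CYP19A1 probes lie between 1.10 and 29.5 and are nearly all open, and the HSD3B2 probe lies between 10.5 and 312. Signals of different probes are not set against each other as amounts of RNA.

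The mean level of CYP19A1 was highest on day 8, in the mid luteal phase, and lowest on days 3 and 16. That days 3 and 16 lay below day 0 depended on how the signal level of the arrays was treated. They differed from day 0 by −0.62 and −0.54, but by 0.40 and 0.67 with the percentile used for scaling as a covariate. Neither difference passed in either fit, so which of days 0, 3 and 16 is lowest is not settled. On day 8 the levels of mares 1 to 5 were −0.13, −0.14, −0.91, 0.48 and −1.10, a mean of −0.36 ± 0.64 (SD, n = 5). On day 3 they were −2.79, −1.18, −1.63, −3.02 and −2.50, a mean of −2.22 ± 0.79 (SD, n = 5). The arrays of the 2 days did not overlap, though only narrowly: the highest day 3 array, that of mare 2, lay at −1.18 and the lowest day 8 array, that of mare 5, at −1.10.

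On day 0 the CYP19A1 levels of mares 1 to 5 were −1.97, −1.18, −0.84, −0.34 and −3.71, a mean of −1.61 ± 1.32 (SD, n = 5). This was the widest spread of any day, with mare 5 far below the other 4 mares and mare 4 among the highest arrays of the series. On day 12 the levels were −1.34, −1.32, −1.34, −0.41 and −1.78, a mean of −1.24 ± 0.50 (SD, n = 5), so that 3 mares were nearly equal. On day 16 they were −0.61, −1.92, −2.21, −3.03 and −2.95, a mean of −2.14 ± 0.98 (SD, n = 5), with mare 1 well above the other 4. In signal units the medians were 398, 360, 1202, 660 and 454 on days 0, 3, 8, 12 and 16. CYP19A1 was highest on day 8 in 4 of 5 mares and on day 0 in mare 3, and lowest on day 16 in 3 mares. Mare 5 was the lowest on days 0, 8 and 12, with a mean over its 5 days of −2.41 against −1.39 to −1.15 in the other 4 mares.

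**Figure D2:**
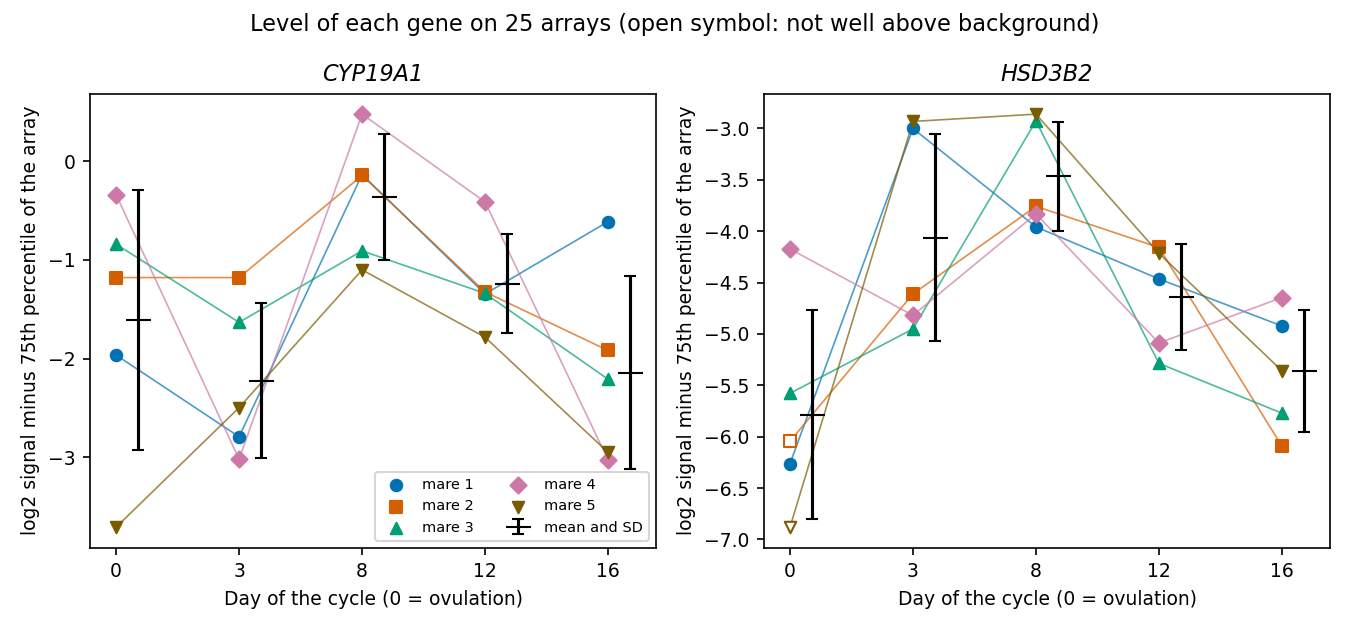
Level (log2 signal minus the 75th percentile of the array) of CYP19A1 and HSD3B2 against the day of the cycle, with 1 line per mare and the mean and SD of each day beside the points. Both genes have their highest mean on day 8 (−0.36 and −3.47), CYP19A1 its lowest on day 3 (−2.22) and HSD3B2 its lowest on day 0 (−5.79), where 2 open symbols mark arrays not well above background.

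CYP19A1 differed between the 5 days (limma F test, adjusted p = 0.0378), as did 35.8% of all 35768 probes tested. Of the 10 pairs of days, 2 passed for this gene, and both involve day 8. From day 3 to day 8 it rose by 1.86 ± 0.53 (log2, SE, 95% interval 0.76 to 2.97, adjusted p = 0.0206), which is 3.64-fold, and the rise was seen in 5 of 5 mares, by 0.73 to 3.50. Of all probes, 6.09% were called higher on day 8 than on day 3, and 6.11% had day 8 arrays that all lay above those of day 3. From day 8 to day 16 it fell by 1.78 ± 0.53 (95% interval −2.89 to −0.68, adjusted p = 0.0252), 3.44-fold, in 5 of 5 mares, against 7.15% of all probes called lower. Here the days overlapped, since the day 16 array of mare 1 lay among those of day 8, and the change within mares ran from −3.51 to −0.48.

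In the order of the means, day 8 was followed by days 12, 0, 16 and 3, and no neighbours in this order passed the test. Day 8 lay above day 12 by 0.88 (95% interval −0.22 to 1.98, adjusted p = 0.441), a difference of the same sign in 5 of 5 mares. Day 12 lay above day 0 by 0.37 (interval −0.74 to 1.47), day 0 above day 16 by 0.54 (interval −0.57 to 1.64) and day 16 above day 3 by 0.08 (interval −1.02 to 1.18). These intervals leave room for differences of over 1 log2 unit either way for the last pair, so the lower part of the order is not settled. Between day 0 and day 8 the difference was 1.25 (interval 0.14 to 2.35, adjusted p = 0.10), positive in 4 of 5 mares.

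The direction of both CYP19A1 calls was the same within each batch that held both days. On the 4 slides with arrays of days 3 and 8, the difference was 1.04 to 2.66, and on the 4 slides with days 8 and 16 it was −2.40 to −0.48. Most of these slides held both arrays from the same mare. Their differences are thus the changes within mares given above and not a separate check. Within scan days it was 1.04 to 2.27 for the first in 3 of 3 scan days, and −2.32 to −0.89 for the second in 2 of 2. With scan day as a term of the model the rise stood at 1.81 (adjusted p = 0.0318), while the fall was −1.65 and no longer passed (adjusted p = 0.0519). As a description, the level of CYP19A1 and the log2 of the 75th percentile had a correlation of −0.49 across the 25 arrays. These arrays share mares and slides. Because the level is the signal minus that percentile, part of a negative correlation is built in. For HSD3B2, scaled in the same way, the correlation was 0.13. With that percentile as a covariate the rise was 1.51 (adjusted p = 0.0227), the fall −1.25 (adjusted p = 0.0764), and day 8 against day 0 passed at 1.91 (adjusted p = 0.00563).

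The CYP19A1 calls also depended on single arrays. Without the 4 arrays closer to another day the F test gave an adjusted p of 0.00135, the rise was 2.12 and the fall −2.02, both passing. The difference between days 0 and 3 passed too, at −1.40 (adjusted p = 0.0278), as did that between days 3 and 12, at 1.24 (adjusted p = 0.0286). These arrays were picked from the same data as unlike their day, so the smaller p and the added calls are no separate support. They include the lowest CYP19A1 array of day 0 (−3.71, mare 5) and the highest of day 3 (−1.18, mare 2) and of day 16 (−0.61, mare 1). The rise from day 3 to day 8 did not pass without the day 3 array of mare 4 (1.66, adjusted p = 0.0617), the day 8 array of mare 4 (1.65, adjusted p = 0.0651), mare 1 (1.66, adjusted p = 0.0892), mare 2 (2.07, adjusted p = 0.0515) or mare 4 (1.45, adjusted p = 0.114). The fall from day 8 to day 16 did not pass without the day 8 arrays of mares 1, 2 or 4 (adjusted p = 0.0537, 0.0549 and 0.0739), the day 16 arrays of mares 4 or 5 (0.0717 and 0.0619), or mares 2, 3 or 4 (0.0948, 0.0790 and 0.133). The F test did not pass in 13 of 30 such omissions: without the day 3 arrays of mares 1, 4 or 5 (0.0618, 0.0601 and 0.0605), the day 8 arrays of mares 1, 2 or 4 (0.0805, 0.0801 and 0.102), the day 16 arrays of mares 3, 4 or 5 (0.0533, 0.0549 and 0.0547), and mares 1, 2, 3 or 4 (0.0679, 0.108, 0.0902 and 0.171). The sign of both differences was kept in all 30.

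The mean of HSD3B2 was lowest on day 0, close to the background of the array, higher on day 3 and highest on day 8. On day 0 the levels of mares 1 to 5 were −6.26, −6.04, −5.58, −4.17 and −6.88, a mean of −5.79 ± 1.02 (SD, n = 5), and the arrays of mares 2 and 5 were not well above background, with signals of 10.5 and 12.7. On day 3 they were −3.00, −4.61, −4.95, −4.82 and −2.93, a mean of −4.06 ± 1.01 (SD, n = 5). Mares 1 and 5 were about as high on day 3 as any mare on day 8, and the other 3 mares lay together well below them.

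On day 8 the HSD3B2 levels were −3.96, −3.76, −2.93, −3.83 and −2.86, a mean of −3.47 ± 0.53 (SD, n = 5). All 5 day 8 arrays lay above all 5 of day 0, of day 12 and of day 16. On day 12 the levels were −4.46, −4.16, −5.29, −5.09 and −4.22, a mean of −4.64 ± 0.52 (SD, n = 5), and on day 16 they were −4.92, −6.09, −5.77, −4.65 and −5.36, a mean of −5.36 ± 0.59 (SD, n = 5). In signal units the medians were 18.6, 65.4, 109, 88.6 and 40.9 on days 0, 3, 8, 12 and 16, and the highest single signal was 312, on day 3 in mare 1. HSD3B2 was highest on day 8 in 4 of 5 mares and on day 3 in mare 1, and lowest on day 0 in 2 mares, on day 16 in 2 and on day 12 in 1. Mare 4 changed least, by 1.26 between its highest and lowest day, and mare 5 most, by 4.02.

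HSD3B2 differed between the 5 days (limma F test, adjusted p = 0.00207), and 3 of the 10 pairs of days passed. From day 0 to day 3 it rose by 1.73 ± 0.46 (log2, SE, 95% interval 0.77 to 2.68, adjusted p = 0.0171), 3.31-fold, in 4 of 5 mares, where 6.98% of all probes were called higher. The arrays of these days overlapped, because mare 4 was higher on day 0 than on day 3. From day 0 to day 8 it rose by 2.32 ± 0.46 (interval 1.37 to 3.28, adjusted p = 0.000857), 4.99-fold, in 5 of 5 mares. Both folds are set against day 0 signals of which 2 of 5 were not well above background, so their size depends on how such spots are treated, as the values with other background corrections show. The probe entered the tests through the later days, since a day needed 4 of 5 arrays well above background and day 0 had 3. Of all probes, 10.5% were called higher in that comparison and 9.27% had arrays that did not overlap in that direction.

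From day 8 to day 16 HSD3B2 fell by 1.89 ± 0.46 (interval −2.85 to −0.94, adjusted p = 0.00683), 3.71-fold, in 5 of 5 mares, with no overlap of the arrays, as for 5.65% of all probes. The difference of day 12 from day 8 was −1.18 (interval −2.13 to −0.22) in 5 of 5 mares with no overlap, a separation that 4.41% of all probes showed, but it did not pass (adjusted p = 0.209). In the order of the means, day 8 was followed by days 3, 12, 16 and 0, and no neighbours passed. Day 8 lay above day 3 by 0.60 (interval −0.36 to 1.55, adjusted p = 0.450), day 3 above day 12 by 0.58 (interval −0.38 to 1.54), day 12 above day 16 by 0.72 (interval −0.24 to 1.67) and day 16 above day 0 by 0.43 (interval −0.53 to 1.39). That last difference turned to −0.46 and −0.023 with normexp background correction, at an offset of 50 and of 1, so which of days 0 and 16 is lowest is not settled.

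**Figure D3:**
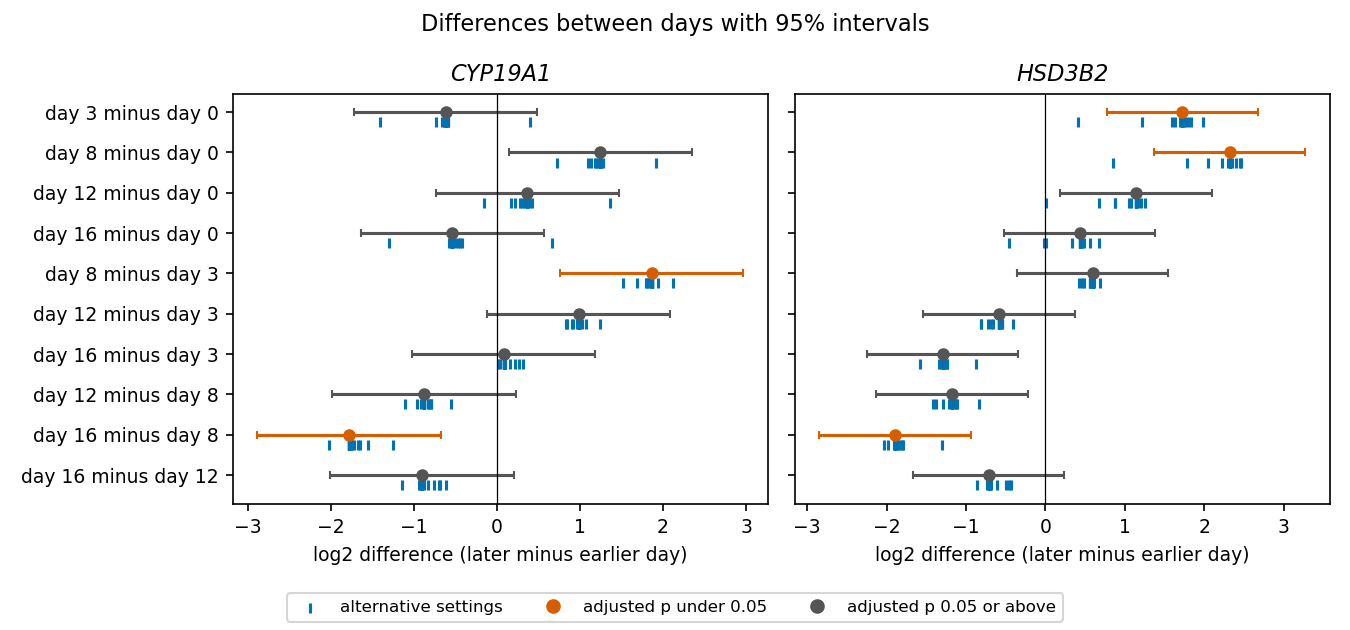
Log2 difference of each of the 10 pairs of days (later minus earlier) for both genes, with 95% intervals, and small blue ticks for the value under each other processing tried. Orange points, 2 for CYP19A1 and 3 for HSD3B2, have an adjusted p under 0.05. The blue ticks far from a point mark normexp for HSD3B2 in the comparisons with day 0, and, for CYP19A1, the array level as a covariate or the omission of 4 arrays.

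The comparisons of HSD3B2 with day 0 depend on how dim spots are treated. An offset of 50 in normexp background correction is larger than every day 0 processed signal of this probe, the highest of which was 47.8. By construction such an offset shrinks differences between dim spots. With it, the rise to day 3 was 0.42 and did not pass (adjusted p = 0.298), and the rise to day 8 was 0.85 (adjusted p = 0.0495). With an offset of 1, chosen after the data were seen, they were 1.22 (adjusted p = 0.0483) and 1.78 (adjusted p = 0.00286). Raising the spots not well above background to the lowest signal above it on their array gave 1.63 and 2.23, both passing. The rise to day 3 also failed with the array level as a covariate (1.84, adjusted p = 0.0587) and with only the arrays of days 0 and 3 in the fit (1.73, adjusted p = 0.101).

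Within slides, the rise of HSD3B2 to day 3 was seen on 2 of 3 slides (−0.65 to 3.95), the rise to day 8 on 2 of 2 (2.43 and 4.02) and the fall to day 16 on 4 of 4 (−2.84 to −0.96). Many of these slides held both arrays from the same mare, and so repeat changes within mares. Within scan days all 3 kept their direction, with 1 scan day for each rise (1.54 and 2.43) and 2 for the fall (−2.02 and −1.90). The rise to day 3 did not pass without the day 3 arrays of mare 1 (1.46, adjusted p = 0.0617) or mare 5 (1.44, adjusted p = 0.0593), nor without mare 1, 2 or 5 (adjusted p = 0.145, 0.0652 and 0.162). The fall to day 16 did not pass without mare 2 (−1.78, adjusted p = 0.0516) or mare 3 (−1.65, adjusted p = 0.0647). The rise to day 8 passed in all 30 omissions of an array or a mare (1.90 to 2.82). Without the 4 arrays closer to another day all 3 calls passed, at 1.59, 2.05 and −2.04, but that omission by itself favours differences between days.

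Neither gene kept a call when slide and mare were both terms of the model, a fit in which 7813 probes passed the F test against 12796 without them. The differences themselves moved little: for CYP19A1 they were 1.87 (adjusted p = 0.0660) and −1.55 (adjusted p = 0.128), and for HSD3B2 1.69 (adjusted p = 0.238), 2.30 (adjusted p = 0.102) and −1.85 (adjusted p = 0.0747).

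Both genes thus had their highest mean on day 8 and a lower one on day 16, and their values differ most in the step from day 0 to day 3. There CYP19A1 stood at −0.62 (95% interval −1.72 to 0.49, adjusted p = 0.479) and HSD3B2 at 1.73. Because the difference between the genes on 1 array does not depend on the scaling between arrays, it was tested on its own. Its size still depends on how dim spots are treated, since HSD3B2 was close to background on day 0. CYP19A1 minus HSD3B2 changed by −2.34 from day 0 to day 3 (exact permutation test over 5 and 5 arrays, two-sided, p = 0.0238), which is 0.238 after adjustment over the 10 pairs of days. None of the 10 pairs passed after adjustment, this 1 had an unadjusted p under 0.05, and the smallest p that 5 against 5 arrays allow is 0.00794. Even at that smallest p, 1 pair alone could not pass the adjustment over 10 pairs. In 4 other settings the change from day 0 to day 3 ranged from −2.99 to −1.01. The same permutation test did not pass in any of them (adjusted p = 0.190 to 0.423). Taken within mares, a test added after the data were seen, the change was −4.09, −1.43, −1.42, −2.03 and −2.74 in mares 1 to 5. It was negative in 5 of 5 mares, the exact two-sided sign-flip permutation test gave p = 0.0625 (0.313 adjusted over the 10 pairs), and 0.0625 is the smallest p that 5 mares allow. Neither test passed after adjustment. The sign-flip test on 5 mares could not reach 0.05 whatever the values, so its not passing decides nothing about whether the genes differ.

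Other genes of steroid synthesis, metabolism and response were counted from a list of 84 symbols, 83 without the other name of HSD3B2, of which 14 had a named probe that passed the filter on dim probes. Of these 14, 6 differed between the days, a share of 42.9% against 35.8% of all probes tested. Those 6 were POR, ESR1, NR5A2, PGRMC1, HSD11B2 and AKR1C1. The 8 that did not pass were STAR, CYP11A1, CYP17A1, CYB5A, HSD17B1, HSD17B4, SULT1E1 and NR5A1.

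Upstream of both members, none of the 3 genes that supply their substrates passed. STAR, which moves cholesterol into mitochondria, had mean levels between −5.51 and −5.00 (adjusted p = 0.518), although 1 of its 4 probes, not the brightest, passed. CYP11A1, which makes pregnenolone from cholesterol, was well above background on 19 of 25 arrays, with means between −7.38 and −6.32 (adjusted p = 0.539). CYP17A1, which makes androgens, lay between −5.87 and −5.30 (adjusted p = 0.190).

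Of the partners of cytochrome P450 enzymes, POR changed and CYB5A did not pass. POR, the reductase that hands electrons to aromatase and to other P450 enzymes of the endoplasmic reticulum, had means of 0.55 ± 0.22, 1.78 ± 0.39, 2.12 ± 0.61, 2.28 ± 0.91 and 0.48 ± 0.24 (SD, n = 5) on days 0, 3, 8, 12 and 16. It was high on the 3 luteal days and low on both others. The rise from day 0 to day 3 was 1.23 ± 0.33 (SE, adjusted p = 0.0178), and the difference of day 16 from day 8 was −1.64 ± 0.33 (adjusted p = 0.00141). The rise did not pass with slide and mare as blocks (1.44, adjusted p = 0.136), with the array level as a covariate (1.32, 0.0585), without the 4 arrays closer to another day (1.18, 0.0556), without the day 3 array of mare 1 (1.15, 0.0522), or without mares 1, 2, 3 or 5 (0.111, 0.0588, 0.0615 and 0.107). The later difference passed in all settings and omissions tried. CYB5A, cytochrome b5, had means between 1.69 and 2.13 (adjusted p = 0.382).

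PGRMC1, a haem-binding membrane protein known to associate with P450 enzymes, had means of 4.83 ± 0.36, 5.30 ± 0.27, 6.13 ± 0.29, 5.26 ± 0.52 and 4.87 ± 0.25 (SD, n = 5). Like both members it had its highest mean on day 8. Day 8 exceeded day 3 by 0.83 ± 0.23 (SE, adjusted p = 0.0153), day 16 differed from day 8 by −1.26 ± 0.23 (adjusted p = 0.000494), and 2 of its 2 probes passed the F test. The first difference did not pass without the day 8 array of mare 3 (adjusted p = 0.0503) or without mares 2, 3 or 4 (0.0643, 0.114 and 0.0586).

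Among enzymes that act on the finished hormones, HSD11B2, which inactivates cortisol, had means of −3.36 ± 0.41, −2.37 ± 0.79, −2.87 ± 0.84, −4.36 ± 0.76 and −4.24 ± 1.20 (SD, n = 5). Between days 3 and 12 it changed by −1.98 ± 0.50 (SE, adjusted p = 0.00688), and without mare 3 neither this difference (−1.87, adjusted p = 0.0513) nor the F test (adjusted p = 0.0855) passed. AKR1C1, of a family that reduces progesterone and other steroids, had means of −4.86, −4.81, −4.88, −3.10 and −4.03, and was higher by 1.76 ± 0.53 (SE) on day 12 than on day 0 (adjusted p = 0.0231), with 3 of 3 tested probes passing the F test. Without the day 0 array of mare 5 the rise was 1.27 and did not pass (adjusted p = 0.0867), nor did it without the day 12 arrays of mares 1, 2 or 4 (0.0578, 0.0507 and 0.0626) or without mares 1, 2, 3 or 4 (0.0614, 0.0553, 0.0894 and 0.0650). It was 0.76 with normexp at an offset of 50 (adjusted p = 0.0962), 1.38 with scan day as a block (0.106), 1.85 with the array level as a covariate (0.0654) and 1.27 without the 4 arrays closer to another day (0.0813). Its F test did not pass without the day 12 arrays of mares 1, 2, 3 or 4 (adjusted p = 0.0828, 0.0774, 0.0609 and 0.0942), without mares 1, 2, 3 or 4 (0.108, 0.0524, 0.143 and 0.163), or with the array level as a covariate (0.0536). Close relatives of AKR1C1 may hybridise to the same probes, which was not tested. SULT1E1, the oestrogen sulphotransferase, and HSD17B1 and HSD17B4, which interconvert oestradiol and oestrone, did not pass (adjusted p = 0.334, 0.222 and 0.883).

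Of the receptors and regulators on the list, ESR1, the oestrogen receptor alpha, had means of 7.12 ± 0.24, 6.67 ± 0.50, 6.05 ± 0.19, 5.39 ± 0.27 and 6.47 ± 0.63 (SD, n = 5), and was lower on day 12 than on day 0 (−1.73 ± 0.26, SE, adjusted p = 4.49e-05). These are values of its brightest probe, and 4 of its 6 tested probes passed the F test. NR5A2, a nuclear receptor known to bind aromatase promoters in other tissues, had means of −4.71 ± 0.49, −5.45 ± 0.43, −5.46 ± 0.35, −4.56 ± 0.52 and −3.77 ± 0.51 (SD, n = 5). It was lowest on days 3 and 8 and the rise to day 16 from day 8 was 1.69 ± 0.29 (SE, adjusted p = 0.000276), the interval over which CYP19A1 fell. Whether NR5A2 and CYP19A1 are linked in this tissue was not tested. NR5A1, a relative of NR5A2, did not pass (adjusted p = 0.309) and was well above background on 23 of 25 arrays.

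In the pairs of days, the calls among the 14 genes were counted beside the share of all probes called. Between days 0 and 3, 1 was higher (POR) and none lower, against 12.7% of all probes called. Between days 0 and 8, 2 were higher and 1 lower (22% of all probes), between days 0 and 12 also 2 and 1 (18%), and between days 0 and 16 none (4.69%). Between days 3 and 8, 1 was higher (PGRMC1) and none lower (13.8%), between days 3 and 12, 2 were higher and 2 lower (17.9%), and between days 3 and 16, 1 was higher and 2 lower (13.8%). None was called between days 8 and 12 (1.08%). In each pair of days without a call, 5 of the 14 genes had an unadjusted limma p under 0.05. The share of all probes at that unadjusted threshold was not counted, so these 5 cannot be set beside 4.69% or 1.08%, which are shares after adjustment. In the later pairs, 1 was higher (NR5A2) and 2 lower (POR and PGRMC1) on day 16 than on day 8 (15%), and 1 was higher and 1 lower on day 16 than on day 12 (8.08%). The median difference of the 14 genes was −0.04 between days 3 and 8, where that of all probes was 0.08, and −0.10 between days 8 and 16, where that of all probes was −0.05.

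**Figure D4:**
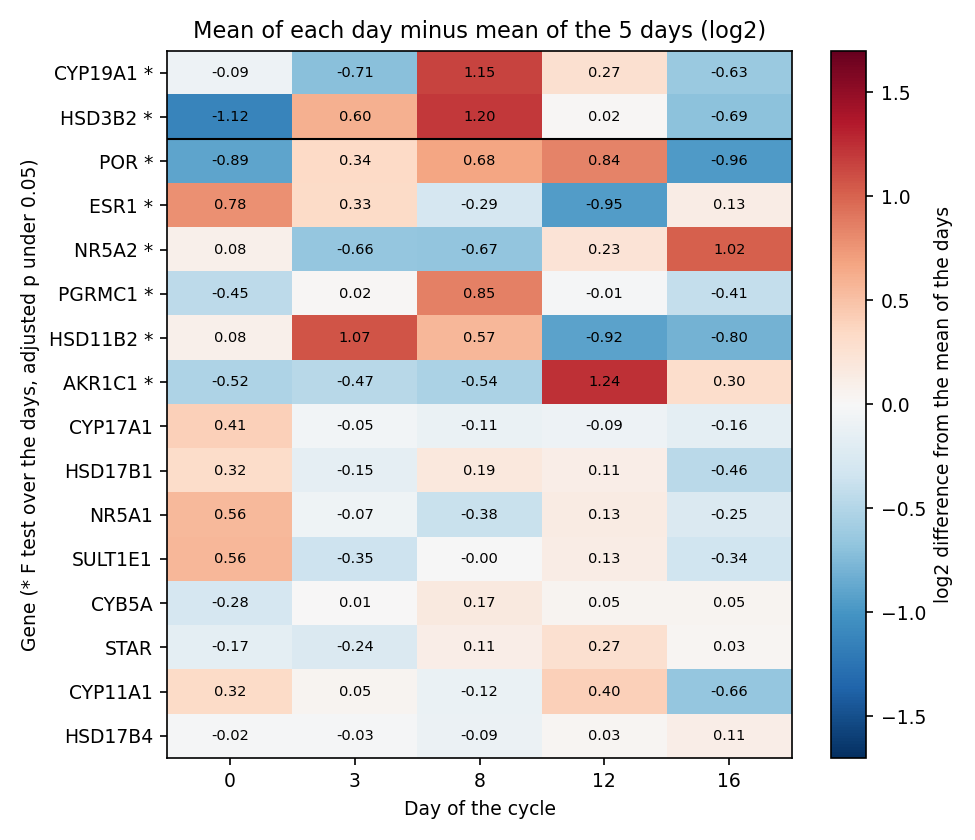
Mean level of each gene on each day minus its mean over the 5 days (log2, colour and printed value), with CYP19A1 and HSD3B2 on top and the 14 measured genes of the steroid list below, ordered by the F test. An asterisk marks an adjusted p under 0.05, and the day 8 cells of CYP19A1 (1.15), HSD3B2 (1.20) and PGRMC1 (0.85) are each the highest of their row.

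Markers of cell types that a biopsy can hold also moved with the days. The summed signal of the measured stromal markers (2 of 9 listed, DCN and LUM), relative to the 75th percentile, was 29.8 to 45 on day 0, 8.62 to 25.2 on day 3, 11.8 to 16.1 on day 8, 12.6 to 20 on day 12 and 18.2 to 36.9 on day 16. That of 4 of 12 leukocyte markers was 2.20 to 5.36 on day 0, 2.21 to 2.97 on day 3, 1.44 to 1.98 on day 8, 3.27 to 4.48 on day 12 and 3.03 to 7.42 on day 16. Both sums were low on day 8, when the members were high. The stromal sum was already low on day 3, when CYP19A1 had its lowest mean and HSD3B2 a higher mean than on day 0. Single markers differed. DCN and the leukocyte markers CD14, GNLY and CCL5 had their lowest means on day 8. LUM had its lowest on day 12 (0.37, against 1.19 on day 8). CD68, a leukocyte marker, had its lowest on day 16 (−3.25, against −3.14 on day 8) and did not pass the F test (adjusted p = 0.0785).

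The epithelial marker ESRP1 did not pass the F test (adjusted p = 0.619), with signals of 6.65 to 8.20 times the 75th percentile on day 8 and 5.88 to 12.6 on day 0. The ciliated cell marker DYDC1 (1 of 6) was well above background on 18 of 25 arrays and did not pass (adjusted p = 0.145), while PECAM1 of endothelium (1 of 6) and TAGLN of smooth muscle (1 of 5) did (adjusted p = 0.0316 and 0.000608). PECAM1 had its lowest mean on day 8 (0.14) and its highest on day 12 (0.87). TAGLN was lowest on days 3 and 8 (−2.30 and −2.29) and highest on day 16 (−0.52). Of 8 markers of steroid-producing ovarian cells 5 were measured, and their summed signal was 0.0776 to 0.127 on day 0, 0.0739 to 0.116 on day 3, 0.0739 to 0.165 on day 8, 0.0998 to 0.196 on day 12 and 0.0445 to 0.121 on day 16. STAR, CYP11A1, CYP17A1 and NR5A1 among them did not pass, and INHA, an inhibin subunit, did (adjusted p = 0.0170). The part of these markers in the changes of CYP19A1 and HSD3B2 was not tested.

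Among 501 other named genes, those whose level followed CYP19A1 most closely over the 25 arrays were PRM1, a protamine (r = 0.72), IGF1, an insulin-like growth factor (r = 0.72), and SLC4A2, an anion exchanger (r = 0.71). None of these 3 passed the F test over the days (adjusted p = 0.249, 0.724 and 0.148). Their correlations with the 75th percentile of the array were −0.68, −0.35 and −0.54, of the same sign as that of CYP19A1. Subtracting that percentile from every level by itself favours a negative sign. The genes closest to HSD3B2 were LGB1, beta-lactoglobulin (r = 0.81), HK2, a hexokinase (r = 0.77), and ITGA2B, an integrin subunit (r = 0.72). All 3 differed between the days (adjusted p = 6.45e-07, 9.13e-07 and 0.000214). LGB1 was well above background on 5 of 5 arrays of days 8 and 12, on 4 of day 3, on 1 of day 16 and on none of day 0. HK2 had means of −4.54 ± 0.51, −2.61 ± 0.57, −1.62 ± 0.35, −2.51 ± 0.57 and −3.85 ± 0.32 (SD, n = 5), with its highest mean on day 8 and its lowest on day 0, as for HSD3B2. These correlations describe arrays that share mares, slides and scaling, and carry no test.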

How the data were processed

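Per the labels' protocols, Trizol was used for RNA and Cy3 as the label. The deposited values are intensities: Agilent Feature Extraction 10.7.3.1, named in the submitters' processing notes, had corrected each array for background and for spatial trends, per the file headers. The deposited value table equalled the processed signal on all 25 arrays. From these, log2 values minus the 75th percentile of each array were computed, spots marked as outliers were set to missing (794 in all, none of CYP19A1 or HSD3B2), and spots of a probe were averaged. The 35768 probes well above background on at least 4 of 5 arrays of some day were tested, a filter that 2 of the 10 member probes passed. HSD3B2 passed it through days 3, 8, 12 and 16, with 5 of 5 arrays each, and not through day 0, with 3 of 5. Its day 0 values near background are given as measured.

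All 25 arrays were fitted in 1 model with day as its term (limma 3.58.1, R 4.3.3), with moderated two-sided tests and Benjamini-Hochberg adjustment over all tested probes within each comparison. A change was called at an adjusted p under 0.05. The script was checked on simulated data. Tables and figures used Python 3.11.15, pandas 2.3.3, numpy 2.4.6, scipy 1.17.1 and matplotlib 3.10.9. No depth exists for arrays, and the number of arrays limits the precision.

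RefSeq names (assembly TB-T2T) were found by accession for 1307 probes of 620 genes. Probes named only by Ensembl or other identifiers were not matched, so list counts cover named probes only. No positions are given. Where a gene had several probes, the brightest on average was used. Named genes were both members, all genes of the steroid list that passed the F test (up to 12), and the 3 named genes most correlated with each member. One gene of the steroid list is not reported here and was left out of its counts. The members and lists were chosen with earlier results of these data known.

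Arrays with the same mare number come from 1 animal, per the labels. With the day means removed, the median correlation was 0.245 over 50 pairs of arrays of the same mare (35 over 0.1), 0.120 over the 26 pairs on different slides and −0.05 between different mares, so a mare block was tried. There were 7 slides, with 3 or 4 arrays each, and 4 scan days. Normexp used the median signal, as the output holds no mean signal.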

Additional observations from a re-analysis of the deposited data

Results flagged for a closer look

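In groups of 5 arrays, the gap of the highest or lowest array to its neighbour was compared with the range of the group, for both members and the other genes named with values. This marked 4 of 70 groups, about the 1 in 20 that chance gives. No group of CYP19A1 or HSD3B2 was marked. AKR1C1 on day 0 was at −6.81 in mare 5 against −4.80 to −4.01 in the other 4 mares. AKR1C1 on day 16 was at −2.74 in mare 4 against −4.64 to −4.15 in the others. PGRMC1 on day 3 was at 5.78 in mare 5 against 5.11 to 5.28 in the others. SLC4A2, one of the genes most correlated with CYP19A1, was at 3.60 on day 0 in mare 5 against 5.06 to 5.64 in the others. The day 0 array of mare 5 was also the lowest CYP19A1 array of the series, at −3.71.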

How the results depend on the processing

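Mare as a block (the pairing of the replicates) changed no call: the F test gave an adjusted p of 0.0197 for CYP19A1 and 0.00386 for HSD3B2, the called pairs stayed at 2 and 3, and 15516 probes passed against 12796 without it. Slide and mare as blocks together gave an adjusted p of 0.156 for CYP19A1 and 0.0951 for HSD3B2 in the F test, 0 called pairs for both, 7813 probes, and differences of 1.87 and −1.55 (CYP19A1, day 8 minus day 3 and day 16 minus day 8) and of 1.69, 2.30 and −1.85 (HSD3B2, day 3 minus day 0, day 8 minus day 0 and day 16 minus day 8). Scan day as a block gave 0.0774 for the CYP19A1 F test, −1.65 for its fall to day 16 and 1 called pair. The array level as a covariate gave −1.25 for that fall and 1.84 for the HSD3B2 rise to day 3, and turned the CYP19A1 differences of day 3 and of day 16 from day 0 to 0.40 (adjusted p = 0.71) and 0.67 (adjusted p = 0.761), from −0.62 and −0.54. With an offset of 50, normexp gave 0.42 for the HSD3B2 rise to day 3 and turned its day 16 difference from day 0 to −0.46, and with an offset of 1 to −0.023, from 0.43. Fitting only 2 days left the rise to day 3 at 1.73 (adjusted p = 0.101). Without the 4 arrays closer to another day, an omission chosen after the data were seen, CYP19A1 had 4 called pairs and its day 12 difference from day 0 turned to −0.16 from 0.37. Taken from the other CYP19A1 probes with no filter on dim probes, the F test gave an adjusted p of 0.0969, 0.0811, 0.831, 0.472, 0.866, 0.680 and 0.650, and 0.0371 for A_69_P006362, which was never well above background and whose highest signal was 8.52.

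Leaving out each array or mare in turn, the adjusted p of the F test ranged from 0.00934 to 0.171 for CYP19A1 and from 0.000278 to 0.0305 for HSD3B2. The CYP19A1 differences ranged from 1.45 to 2.15 (day 8 minus day 3) and from −2.17 to −1.35 (day 16 minus day 8), with 0 to 3 called pairs. The HSD3B2 differences ranged from 1.17 to 2.32 (day 3 minus day 0), 1.90 to 2.82 (day 8 minus day 0) and −2.16 to −1.65 (day 16 minus day 8), with 1 to 5 called pairs: 1 without mare 2, and 5 without mare 4 or its day 0 array. All-probe counts ranged from 7506 (without mare 2) to 13959, with 7930 without mare 3, and the count of steroid list genes from 4 (without mare 3) to 6. The change of CYP19A1 minus HSD3B2 from day 0 to day 3 ranged from −2.74 to −1.91. Of the small CYP19A1 differences that did not pass, day 12 minus day 0 ranged from −0.16 to 0.68, day 16 minus day 0 from −1.06 to 0.0011 and day 16 minus day 3 from −0.44 to 0.34: the first turned to −0.16 without the day 0 array of mare 5 and −0.02 without mare 5, the second to 0.0011 without mare 4, and the third to −0.06 and −0.12 without the day 3 arrays of mares 1 and 4, −0.30 without the day 16 array of mare 1 and −0.44 without mare 1. Quantile normalization kept all 5 calls, as did an intensity trend in the moderation, no filter on dim probes, keeping outlier spots, and slide alone as a block. The median of all probes moved from −0.11 to 0.00 between days 0 and 3 under quantile normalization and to −0.29 with normexp. HSD3B2 has no value where only probes well above background on all 25 arrays were tested. Where a setting changed a call, the cause was not tested unless stated.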
